A study of Mus musculus with 12 samples.

Results

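Axon guidance ligands and receptors were taken as the protein-coding genes whose names start with Sema, Plxn, Efna, Efnb, Epha, Ephb, Slit1, Slit2, Slit3, Robo, Ntn or Unc5 and that had 10 or more counts over 11 mice. The rule found 69 genes among 26963 genes tested, in a file of 47729 genes, and no gene that met the names fell under the count minimum. They were 20 semaphorins, 9 plexins, 5 ephrin-A and 3 ephrin-B ligands, 9 EphA and 5 EphB receptors, 3 Slits, 4 Robo receptors, 5 netrins and netrin-Gs, and 6 genes named Unc5. Unc50 and Unc5cl meet the name rule without being netrin receptors, and the rule did not use any expression difference.

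RNA was measured by mRNA sequencing of the amygdala of both hemispheres in 12 age-matched female C57/BL6 mice, an isogenic laboratory strain carrying no transgene. All mice had been through the elevated plus maze, the light/dark box and a social interaction test. GEO's labels sort the mice by predicted anxiety state into 3 less anxious mice (mice 3, 7 and 12), 4 anxious mice (mice 1, 4, 8 and 11) and 4 more anxious mice (mice 2, 6, 9 and 10), and give mouse 5 no state. The study cut these states from a principal component of the same RNA data that it had related to behaviour, so a test between them is not independent of expression. The behavioural scores themselves were not derived from RNA.

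Guidance cues are secreted or membrane-bound proteins that attract or repel growing axons through receptors on the growth cone, and many of them go on to shape spines and synapses in the adult brain. Semaphorins signal through plexins, often with neuropilins as partners. Ephrins are cell-surface ligands of the Eph receptor tyrosine kinases and can signal in both directions. Slits repel axons through Robo receptors, netrins attract or repel through Dcc and Unc5 receptors, and netrin-Gs are lipid-anchored relatives that bind synaptic adhesion partners instead.

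Library totals ran from 31745630 to 45142355 estimated counts in the 11 grouped mice, and the 3 groups overlapped in depth. No pair of libraries was alike within counting noise. Of the 69 cell type marker entries checked, 65 had a count in every mouse, and those of amygdala neurons were present throughout. Prkcd is entered under both central amygdala and thalamus. Summed astrocyte markers spanned 1063 to 1298 CPM (counts scaled to library size) in the less anxious mice and 795 to 1011 CPM in the more anxious mice, with all 5 of 5 markers lower in the latter. Summed endothelial markers spanned 147 to 195 CPM and 103 to 127 CPM, again with 5 of 5 lower, and both lists left no overlap between these groups. Summed striatal markers spanned 248 to 673 CPM and 197 to 420 CPM, with 7 of 7 lower. Summed pituitary markers did not overlap either, at 3.08 to 3.86 CPM and 1.14 to 1.80 CPM with 3 of 4 lower. The anxious mice, however, ranged from 1.88 to 53.9 CPM on the pituitary list. Its marker Prl averaged 1.06 CPM in less anxious, 9.86 CPM in anxious and 0.0700 CPM in more anxious mice. The pituitary signal therefore did not decline step by step across the 3 groups. Mean levels were also lower for 6 of 6 oligodendrocyte, 2 of 2 precursor and 5 of 5 microglial markers, and higher for 5 of 5 hypothalamic ones, and the summed ranges of these lists overlapped. Choroid plexus markers were lower for 5 of 6, with overlapping summed ranges of 16.0 to 24.6 CPM and 9.86 to 17.4 CPM. Of these markers, Kcnj13 averaged 4.20 CPM in less and 0.459 CPM in more anxious mice, without overlap. In bulk tissue, fewer cells of a type and less RNA per cell cannot be told apart, and the part of these cell types in the results that follow was not tested.

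Levels were compared between genes as CPM per kilobase of exon, averaged over the 11 mice (± SD, n = 11). Among the ligands, the ephrin-B ligand Efnb3 stood highest at 51.9 ± 11.02, with no overlap with Efnb2 at 10.2 ± 1.17, and Efnb1 was lowest of its family at 5.58 ± 1.33. Sema6b, a transmembrane semaphorin, led the semaphorins at 26.3 ± 4.67. Sema3b, a secreted one, had the lowest mean at 0.598 ± 0.324, with a range that overlapped Sema3d at 0.658 ± 0.121. Efna3 led the ephrin-A ligands at 21.7 ± 5.12, and Efna4 was lowest at 0.200 ± 0.0869. Slit1 stood at 14.6 ± 3.42 and Slit2 at 1.88 ± 0.476. The netrin family was led by the netrin-Gs, Ntng2 at 4.68 ± 1.13 and Ntng1 at 4.42 ± 1.18, whose ranges over the mice overlapped, while Ntn5 was lowest at 0.538 ± 0.311.

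Among the receptors, Unc5a, a netrin receptor, stood highest at 28.4 ± 4.98. Its range overlapped that of Unc50 at 19.4 ± 4.17, a gene taken in by its name that is not a netrin receptor. Plxnd1 led the plexins at 15.2 ± 3.11, overlapping Plxnc1, and Plxnb3 was lowest at 2.80 ± 0.403. Epha4 at 11.2 ± 2.83 and Epha5 at 9.53 ± 1.10 overlapped at the head of the EphA receptors, and Epha1 was close to absent at 0.0576 ± 0.0374. Ephb6, an Eph receptor without kinase activity, led the EphB receptors at 12.4 ± 2.02, and Ephb4 was lowest at 0.714 ± 0.161. Robo2 stood at 5.33 ± 0.859 and Robo4, known from endothelial cells, at 0.815 ± 0.173. Unc5cl, also taken in by its name only, had the lowest mean of all 69 at 0.0548 ± 0.0427, within the spread of Epha1. Within the families, 38 of 59 neighbouring pairs had overlapping ranges over the mice. Of those 38, 34 also changed order from mouse to mouse, and 4 kept the same order in all 11 mice. Unc5a was above Unc50 in 10 of 11 mice, Plxnd1 above Plxnc1 in 8, Epha4 above Epha5 in 7 and Ntng2 above Ntng1 in 6.

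**Figure D1:**
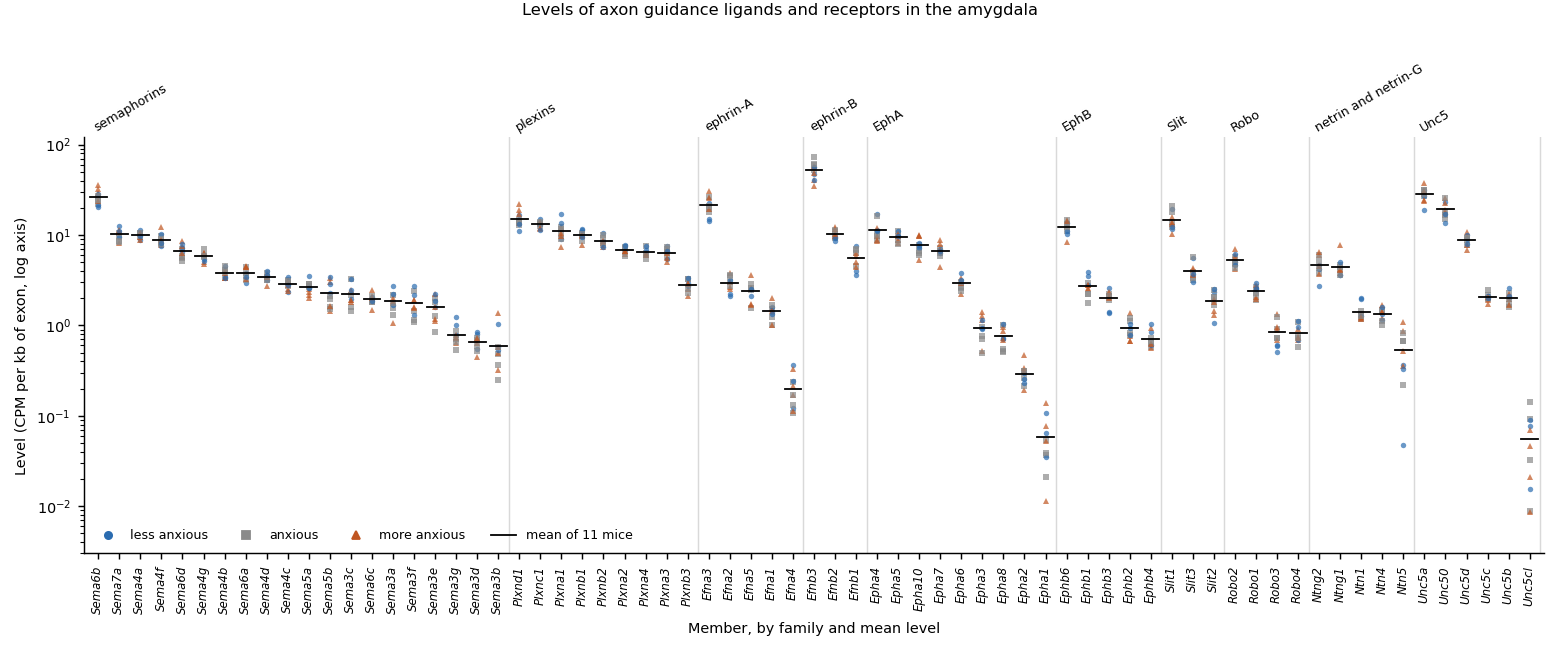
Level of each of the 69 members (CPM per kilobase of exon, log axis) in each of 11 mice, ordered within family by mean level; symbols mark the 3 groups and black bars the mean. Efnb3 at 51.9 has the highest mean level, and Unc5cl at 0.0548 the lowest, within the spread of Epha1. Bars mark the mean of each member.

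The spread between mice differed widely from member to member. The coefficient of variation over the 11 mice ranged from 7.98% for Sema4a to 77.8% for Unc5cl, with a median of 20.3% against 14.3% for all genes at a mean of 1 CPM or more. Plxna2, Plxnc1 and Unc5c also stayed at or under 10%. The 9 members above 30% included low-count genes such as Epha1 and Ntn5 but also Sema5b, Epha3 and Robo3. Mouse 2, a more anxious mouse, held the highest or lowest value of the 11 mice for 26 of the 69 members (37.7%). That compares with 19.9% of genes at 1 CPM or more. It also had the lowest value of the 11 mice on every behavioural score fitted below, among them maze entries.

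Across the 3 groups, no member passed edgeR's quasi-likelihood test after adjustment over all genes (0 of 69, where 0.00742% of all genes tested passed), and none passed DESeq2's likelihood ratio test (0 of 69, against 1.36% of genes). At an unadjusted p under 0.05, 9 members were called (13.0%), against 6.35% of all genes tested. Restricted to genes at a mean of 1 CPM or more, the shares were 9 of 66 members (13.6%) and 7.72% of genes. DESeq2 called 12 members at the same unadjusted threshold (12 of 69, against 4.96% of the 34511 genes in that fit). Of the 9, 4 were higher in more than in less anxious mice (5.80%, against 3.95% of genes) and 5 were lower (7.25%, against 2.4% of genes). With a correction for GC content 9 members were again called (5.54% of genes), 2 higher and 7 lower; 7 of them were among the first 9, while Plxnd1 and Sema6b dropped out and Plxna1 and Sema5b came in. Adjusted p-values of the 9 ran from 0.567 to 0.757, so each difference below is only a nominal call, that is, one at an unadjusted p under 0.05. Leaving out mouse 2 raised the count to 16 (8.06% of genes), and leaving out mouse 12 lowered it to 5 (5.57% of genes).

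The 4 members that were higher came from 4 families. Robo3 (chr9:37415669-37433246, minus strand, GRCm38), an unusual Robo receptor that dampens Slit repulsion in commissural axons, was at 3.47, 4.09 and 4.20 CPM in the less anxious mice. It was at 5.00, 6.28, 8.42 and 4.95 CPM in the anxious mice and at 9.10, 6.02, 6.64 and 4.67 CPM in the more anxious mice. All 3 less anxious mice therefore lay below every other mouse. The log2 difference between more and less anxious mice was 0.68 ± 0.22 (SE), with an adjusted p = 0.698 across the groups by edgeR. Without mouse 7 it was 0.39 and without mouse 9 it was 0.55, and either omission took Robo3 out of the nominal calls.

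Efna3 (chr3:89313899-89322965, minus strand), a lipid-anchored ligand of EphA receptors, was at 35.0, 55.3 and 36.5 CPM in the less anxious mice. It was at 46.7, 43.2, 64.0 and 51.2 CPM in the anxious mice and at 73.8, 64.5, 63.1 and 47.7 CPM in the more anxious mice. Mouse 7 reached into the range of the more anxious mice, and mouse 10 fell below mouse 7. More and less anxious mice differed by 0.51 ± 0.15 (SE) on the log2 scale (adjusted p = 0.637 by edgeR), and by 0.37 without mouse 9, which ended the nominal call. An antisense gene, Gm15998, overlaps 344 bases of Efna3 exons at 0.885 CPM against 52.8 CPM for Efna3.

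Plxnd1 (chr6:115954811-115995005, minus strand), a plexin that serves as receptor for class 3 semaphorins, was at 80.1, 120 and 97.5 CPM in the less anxious mice. In the anxious mice it was at 93.0, 98.2, 107 and 104 CPM, and in the more anxious mice at 99.1, 139, 124 and 159 CPM. The anxious and less anxious means were alike, and the groups overlapped. The log2 difference was 0.37 ± 0.15 (SE; adjusted p = 0.698 by edgeR), and it was 0.15 with the GC correction, under which Plxnd1 was not called. Leaving out mouse 6, 8, 9 or 10 each ended the nominal call too, the lowest difference being 0.21 without mouse 10.

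Sema6b (chr17:56123085-56140343, minus strand), a transmembrane semaphorin that binds class A plexins, was at 84.6, 112 and 81.2 CPM in the less anxious mice. It was at 87.2, 103, 107 and 96.8 CPM in the anxious mice and at 115, 128, 141 and 93.8 CPM in the more anxious mice. Its log2 difference was 0.34 ± 0.13 (SE; adjusted p = 0.732 by edgeR), but it turned to -0.046 once the counts were corrected for GC content. Sema6b has the highest exonic GC content of the 9, at 62.9%. Leaving out mouse 1, 6, 8, 9 or 12 each ended the nominal call, and without mouse 9 the log2 difference was 0.13.

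The 5 members that were lower also included the lowest p of the list. Ntn1 (chr11:68209364-68400823, minus strand), the secreted netrin that attracts or repels axons, was at 8.06, 12.3 and 12.5 CPM in the less anxious mice. It was at 8.45, 7.41, 9.05 and 8.03 CPM in the anxious mice and at 8.20, 7.58, 7.37 and 7.84 CPM in the more anxious mice. Mice 7 and 12 stood above all others, and mouse 3 lay among the remaining mice. Between more and less anxious mice the log2 difference was -0.53 ± 0.15 (SE; adjusted p = 0.567 by edgeR). It was -0.53 without mouse 7 and -0.40 without mouse 12, and either omission ended the nominal call.

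Ephb1 (chr9:101922128-102354693, minus strand), a receptor for ephrin-B ligands, was at 19.6, 24.3 and 27.1 CPM in the less anxious mice. It was at 20.8, 12.5, 15.5 and 15.7 CPM in the anxious mice and at 17.8, 18.2, 19.5 and 19.4 CPM in the more anxious mice. The less anxious mice lay above all more anxious mice by a narrow margin, and the anxious group was the lowest. The log2 difference was -0.33 ± 0.16 (SE) for more against less anxious and -0.54 ± 0.16 (SE) for anxious against less anxious (adjusted p = 0.645 across the groups by edgeR). Without mouse 7 or mouse 12 the first was -0.24 or -0.23 and Ephb1 was not called, and without mouse 3 it was -0.50.

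Efnb3 (chr11:69554092-69560205, minus strand), the most abundant member and a ligand of EphB receptors and EphA4, was at 150, 181 and 130 CPM in the less anxious mice. It peaked in the anxious mice at 167, 190, 232 and 192 CPM and was at 182, 153, 129 and 110 CPM in the more anxious mice. The log2 difference was -0.43 ± 0.13 (SE) for more anxious against anxious and -0.16 ± 0.14 (SE) for more against less anxious (adjusted p = 0.640 across the groups by edgeR). The largest step was thus between the anxious and more anxious mice, and leaving out mouse 8 or mouse 11 ended the nominal call. The difference between more and less anxious mice was -0.016 without mouse 3, -0.074 without mouse 10 and -0.27 without mouse 2.

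Both remaining members were semaphorins. Sema5a (chr15:32244810-32696341, plus strand), a transmembrane semaphorin, was at 66.3, 47.8 and 48.2 CPM in the less anxious mice. It was at 54.2, 53.2, 50.7 and 50.1 CPM in the anxious mice and at 47.3, 44.2, 37.3 and 40.2 CPM in the more anxious mice. Every more anxious mouse was below every other mouse, although only just, and the log2 difference was -0.34 ± 0.13 (SE; adjusted p = 0.710 by edgeR). Leaving out mouse 8, 9 or 10 ended the nominal call, with -0.23 without mouse 9. Without mouse 3 the difference was -0.16, still a nominal call.

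Sema3g (chr14:31217860-31230352, plus strand), a secreted semaphorin, was at 3.59, 5.65 and 4.59 CPM in the less anxious mice. It was at 3.97, 2.97, 2.40 and 3.23 CPM in the anxious mice and at 2.87, 3.39, 3.29 and 3.56 CPM in the more anxious mice. On the log2 scale the difference was -0.49 ± 0.21 (SE; adjusted p = 0.757 by edgeR), and leaving out mouse 2, 4, 6, 7, 9, 11 or 12 each ended the nominal call. Without mouse 7 it was -0.16.

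**Figure D2:**
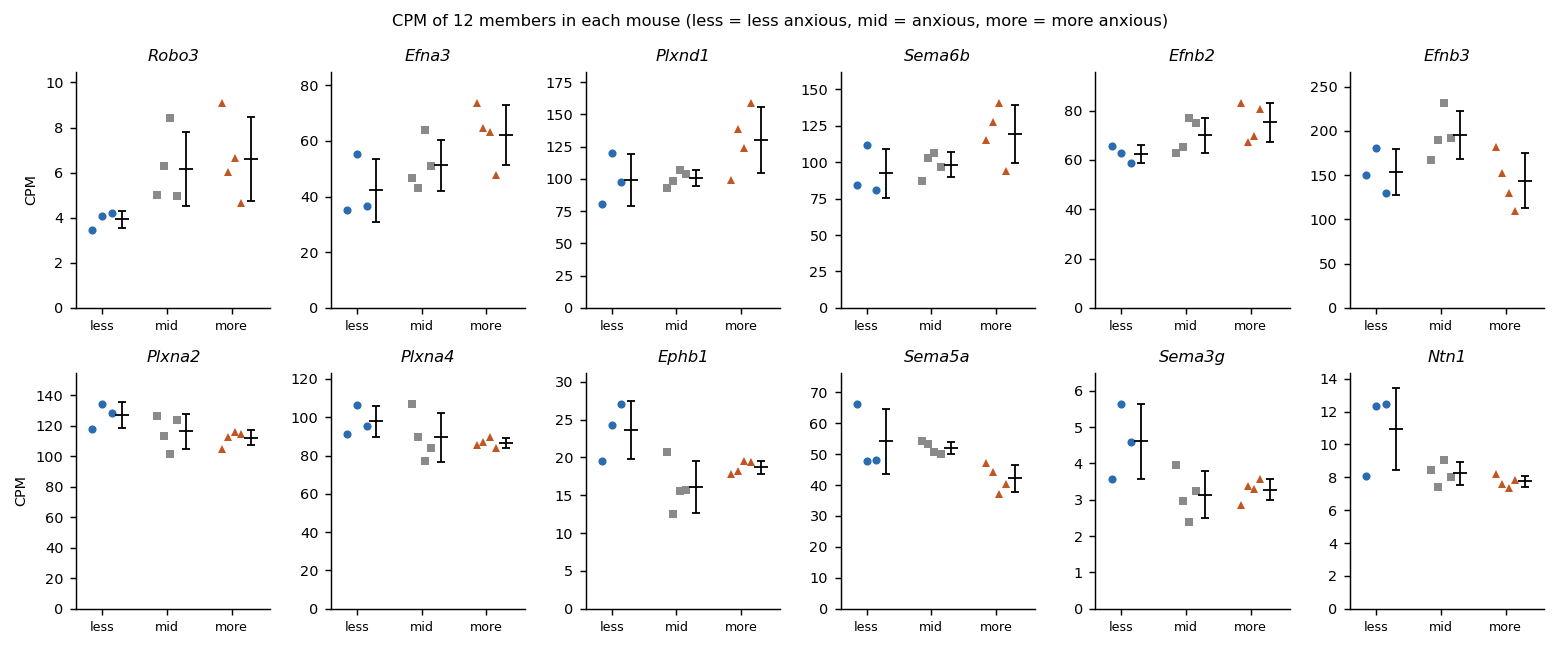
CPM of 12 members in each mouse by group (less anxious, anxious and more anxious), with the group mean ± SD in black; each vertical axis starts at 0. Robo3 lies lowest in all 3 less anxious mice, Sema5a lowest in all 4 more anxious mice, Ntn1 stands highest in mice 7 and 12, both less anxious, and Efnb3 peaks in the anxious mice.

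Without a model, 2 members lay higher in all 4 more anxious mice than in all 3 less anxious mice (2.90% of members, against 4.49% of genes), and 5 lay lower (7.25%, against 3.91% of genes). The 2 higher ones were Robo3 and Efnb2. Efnb2 (chr8:8617434-8661242), a ligand of EphB receptors and EphA4, was at 65.8, 62.7 and 58.6 CPM in the less anxious mice and at 83.2, 67.3, 69.7 and 80.5 CPM in the more anxious mice, a log2 difference of 0.27 ± 0.11 (SE; adjusted p = 0.836 by edgeR). Leaving out mouse 6 or mouse 8 made it a nominal call. The 5 lower ones were Ephb1, Sema5a, Sema3g and the plexins Plxna2 and Plxna4, receptors of class 3 and class 6 semaphorins.

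Plxna2 (chr1:194618218-194816869) was at 118, 134 and 128 CPM in the less anxious mice and at 105, 113, 116 and 115 CPM in the more anxious mice, a log2 difference of -0.17 ± 0.10 (SE). Plxna4 (chr6:32144268-32588192) was at 91.4, 107 and 95.5 CPM and at 85.7, 87.3, 89.8 and 84.0 CPM, also -0.17 ± 0.11 (SE). Neither was a nominal call across the groups (adjusted p = 0.918 and adjusted p = 0.931 by edgeR). Dropping a mouse leaves fewer values to overlap, among members and genes alike. The count of members then ranged from 9 to 20, being 20 without mouse 7 (29.0%, against 19.1% of genes), 13 without mouse 2 (18.8%, against 13.3%), 12 without mouse 3 (17.4%, against 17.1%) and 11 without mouse 6 (15.9%, against 13.0%).

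By family, the plexins leaned to lower values, with 8 of 9 below 0 and a median log2 difference of -0.17 between more and less anxious mice; Plxnd1 was the exception. All 3 Slits were below 0 (median -0.14), and the semaphorins had 14 of 20 below 0 (median -0.10). EphA receptors were split, with 5 of 9 above 0 and a median of 0.017, and so were the Robo receptors with 2 of 4. In the netrin family, 4 of 5 were above 0 (median 0.32) while Ntn1 was not, and the largest difference, 1.53 ± 0.65 (SE) for Ntn5, rested on 4 to 107 counts a mouse and was not a nominal call. Over all 69 members, 43 were below 0 and 26 above, where 50.5% of all genes tested were above 0. The median of the members was -0.087 against 0.0037 for all genes tested. It stayed between -0.093 and -0.030 when single mice were left out and was -0.15 with the GC correction. That correction gave 7 of 9 plexins, 3 of 3 Slits and 17 of 20 semaphorins below 0, and turned the median of the EphA receptors to -0.065.

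**Figure D3:**
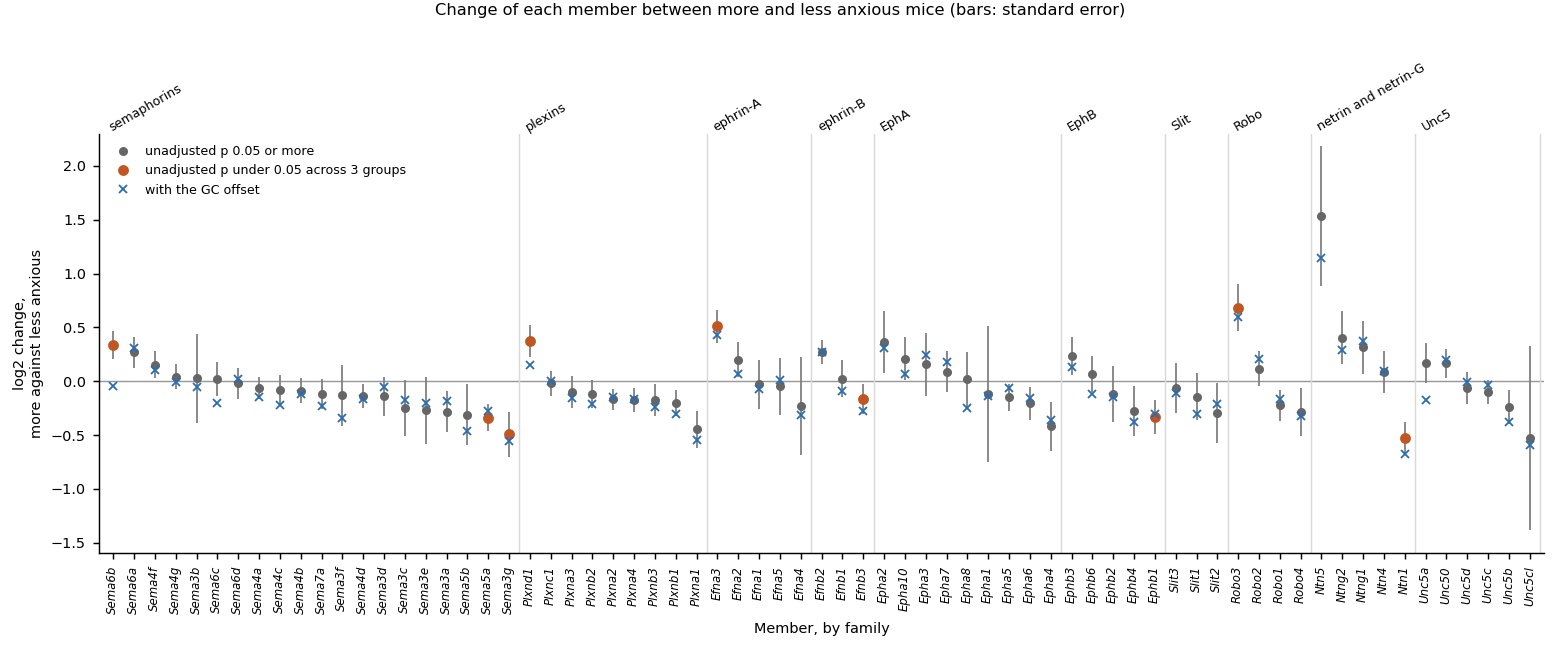
Log2 change of all 69 members between more and less anxious mice (points, with bars for the standard error), by family, and the same with the GC offset (crosses). The 9 coloured points have an unadjusted p under 0.05 across the 3 groups; 8 of 9 plexins and all 3 Slits lie below 0, and Sema6b moves from 0.34 to -0.046 with the offset.

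Members were rich in GC, with a median exonic GC content of 55.1% (range 38.0 to 63.0%) against 49.4% for protein-coding genes at 1 CPM or more. Across the 69 members, GC content and the log2 difference had a Pearson r of 0.24 and a Spearman rho of 0.22, and across 13923 protein-coding genes 0.28 and 0.33. These are correlations across genes measured in the same libraries, and genes are not independent replicates. Exon length went the other way (r = -0.30 for members). Of the 23 members under 50% GC, 6 were above 0, and of the 46 at 50% or more, 20 were above 0. With the GC correction, the counts above 0 became 9 of 23 and 12 of 46.

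**Figure D4:**
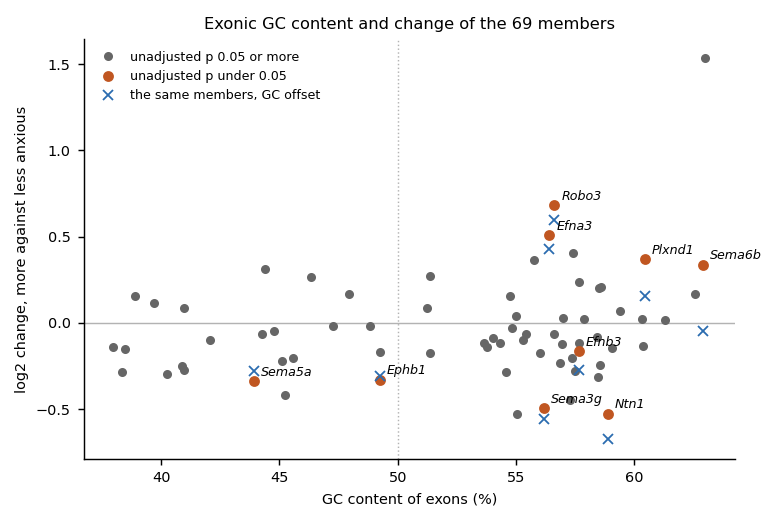
GC content of each member's exons (%) against its log2 change between more and less anxious mice; coloured points have an unadjusted p under 0.05, crosses give the same members with the GC offset, and the dotted line marks 50%. The 4 coloured points above 0 all lie above 55% GC, and the crosses of Sema6b and Plxnd1 sit well below their points.

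The promoters of these genes were looked at for what the members share beyond their names. RefSeq windows on GRCm38.p6, from 250 bases before to 50 bases after the transcript start, were at hand for 60 of the 69 members (76 windows). Their median GC content was 64.0% against 52.7% for all 32851 windows. The SP1 box GGGCGG, searched on both strands, was in 53 of the 76 windows (69.7%, against 35.7% of all windows). The EGR core GCGTGGG was in 8 (10.5%, against 5.04%), the E-box CACGTG in 5 (6.58%, against 7.15%), the AP-1 site TGAGTCA in 2 (2.63%, against 5.20%) and the cAMP response element TGACGTCA in 1 (1.32%, against 1.79%). GGGCGG holds only G and C, and windows matched for GC content were not compared. A match is a run of letters rather than a bound site.

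Windows are printed for 2 of the members that were higher and 2 that were lower, those with the largest log2 difference each way among the 9 that have a window; Efna3 has a pair of windows, of which the outer one is given. Capitals mark every match to the 5 words on either strand, and overlapping matches run together. The windows lie at chr9:37433126-37433425 (Robo3, minus strand), chr3:89322890-89323189 (Efna3, minus strand), chr14:31217623-31217922 (Sema3g, plus strand) and chr15:32244563-32244862 (Sema5a, plus strand).
Robo3: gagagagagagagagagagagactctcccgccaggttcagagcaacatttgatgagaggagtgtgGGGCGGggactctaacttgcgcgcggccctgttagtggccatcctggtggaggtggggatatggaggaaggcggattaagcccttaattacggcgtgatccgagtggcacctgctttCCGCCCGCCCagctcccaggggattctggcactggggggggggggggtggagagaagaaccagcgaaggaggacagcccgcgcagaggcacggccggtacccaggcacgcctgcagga
Efna3: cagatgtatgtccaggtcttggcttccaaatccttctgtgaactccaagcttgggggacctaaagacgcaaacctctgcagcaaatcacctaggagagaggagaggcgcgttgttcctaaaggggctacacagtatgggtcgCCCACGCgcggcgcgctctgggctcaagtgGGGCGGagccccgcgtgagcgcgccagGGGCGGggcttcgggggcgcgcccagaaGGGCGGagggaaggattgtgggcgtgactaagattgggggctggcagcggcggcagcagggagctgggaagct
Sema3g: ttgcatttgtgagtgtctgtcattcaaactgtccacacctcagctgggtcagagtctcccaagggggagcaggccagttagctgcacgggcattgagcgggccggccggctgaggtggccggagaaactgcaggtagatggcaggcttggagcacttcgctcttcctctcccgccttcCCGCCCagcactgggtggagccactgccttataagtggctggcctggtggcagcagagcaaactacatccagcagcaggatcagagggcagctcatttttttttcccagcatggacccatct
Sema5a: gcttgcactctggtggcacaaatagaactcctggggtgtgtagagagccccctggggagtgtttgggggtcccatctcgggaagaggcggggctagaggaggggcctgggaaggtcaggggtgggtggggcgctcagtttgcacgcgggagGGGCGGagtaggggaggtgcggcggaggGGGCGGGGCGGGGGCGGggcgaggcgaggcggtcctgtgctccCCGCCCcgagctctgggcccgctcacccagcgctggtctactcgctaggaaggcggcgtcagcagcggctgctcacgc
Robo3 held 3 SP1 boxes and Efna3 held 3 SP1 boxes and 1 EGR core. Sema3g held 1 SP1 box and Sema5a 5, so the SP1 count did not separate the higher from the lower members in these windows. GC content was 63.3% for Robo3, 64.0% for Efna3, 58.7% for Sema3g and 71.3% for Sema5a.

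The behavioural scores give a comparison in which the groups play no part. The scores fitted were time on the open arms, total entries, distance in the light and the box:zone ratio at 10 min. The labels also give time in the light and box:zone ratios at earlier times, which were not fitted. Each fitted score entered as a number scaled to 1 SD over the 11 mice (n = 11, and n = 10 where a mouse is left out), and log2 values below are per SD. On every fitted score mouse 2 had the lowest of the 11 values. It stood at 2.33% of time on the open arms, 6 entries and 16.6% of distance in the light. In the social interaction test its box:zone ratio was 0.495. All the fits therefore share this mouse at their low end. Group means of each fitted score fell in order from less anxious to anxious to more anxious mice, at 22.2, 14.6 and 9.78% for time on the open arms. The earliest box:zone ratio, which was not fitted, did not follow this order. Single mice did not all follow that order. Time on the open arms ran from 2.33 to 29.2% in the more anxious mice, from 6.73 to 20.1% in the anxious mice and from 17.5 to 24.6% in the less anxious mice. Mouse 6, labelled more anxious, had the highest value of all, while the other more anxious mice, at 2.33, 3.25 and 4.30%, lay below every other mouse.

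For time on the open arms of the elevated plus maze, no member passed adjustment (0 of 69, and 0% of genes), and 7 had an unadjusted p under 0.05 by edgeR (10.1%, against 5.84% of genes; 6 of 66 at 1 CPM or more, against 6.45%). Plxna1, a semaphorin receptor, ranged from 67.0 to 153 CPM with a median of 96.3. It was at 96.3, 67.0 and 88.9 CPM in mice 2, 10 and 9, which had the lowest times, and at 153, 122 and 110 CPM in mice 7, 12 and 6, which had the highest. Its slope was 0.22 ± 0.07 (SE) per SD (n = 11, p = 0.0071, adjusted p = 0.683 by edgeR), with p under 0.05 in all 11 leave-one-out fits. Sema5b, a transmembrane semaphorin, ranged from 10.3 to 24.4 CPM with a median of 14.9 and had 0.28 ± 0.10 (SE) per SD (n = 11, p = 0.0149; 0.0512 without mouse 2 and 0.0586 without mouse 6). Epha2, an EphA receptor, ranged from 0.899 to 2.20 CPM with a median of 1.38 and had -0.24 ± 0.10 (SE) per SD (n = 11, p = 0.0305; 0.176 without mouse 2, 0.103 without mouse 6 and 0.0556 without mouse 12). The count was 3 without mouse 2 (4.54% of genes), and 4 without mouse 6 (6.74%), mouse 7 (4.34%) or mouse 12 (5.15%). With mouse 5 included it was 2 of 69, against 4.62% of genes.

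For total entries in the maze, none passed adjustment (0 of 69, and 0% of genes), and 14 members had an unadjusted p under 0.05 by edgeR (20.3%, against 6.97% of genes; 13 of 66 at 1 CPM or more, against 8.03%), 6 with a positive and 8 with a negative slope. Mouse 2 made 6 entries and the next lowest, mouse 1, made 15. Without mouse 2 the count was 5 (3.74% of genes), and 4 of those 5 were among the 14. Epha1 had the lowest p (0.78 ± 0.22 per SD, SE, n = 11, p = 0.00277) on only 2 to 18 counts a mouse, and 236 bases of its exons lie opposite the gene Zyx, at 33.0 CPM.

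Unc5a ranged from 78.6 to 156 CPM with a median of 117, the highest in mouse 2 with the fewest entries and the lowest in mouse 12 with the most, 42. Its slope was -0.19 ± 0.06 (SE) per SD (n = 11, p = 0.0046, adjusted p = 0.593 by edgeR), and -0.13 (p = 0.0572) without mouse 2. Sema4g, a transmembrane semaphorin, ranged from 41.8 to 60.2 CPM with a median of 51.0 and had -0.13 ± 0.04 (SE) per SD (n = 11, p = 0.00667), with p under 0.05 in all 11 leave-one-out fits.

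For the share of distance walked in the light compartment, none passed adjustment (0 of 69, and 0% of genes), and 10 members had an unadjusted p under 0.05 by edgeR (14.5%, against 5.8% of genes; 9 of 66 at 1 CPM or more, against 6.32%). The lowest p of any member against any score belonged to Ntng2, the netrin-G found on a distinct set of axons from Ntng1. It ranged from 10.8 to 25.8 CPM with a median of 18.1. The 5 mice with the lowest share of distance in the light averaged 22.4 ± 3.10 CPM (SD) and the 5 with the highest 14.9 ± 2.53 CPM (SD).

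The Ntng2 slope was -0.28 ± 0.07 (SE) per SD (n = 11, p = 0.000713, adjusted p = 0.602 by edgeR), with p under 0.05 in all 11 leave-one-out fits and with mouse 5 included (n = 12, p = 0.0352). DESeq2 gave an adjusted p = 0.0623. Another annotated gene on the same strand, 6530402F18Rik, shares 558 bases (14.0%) of Ntng2 exons and stood at 8.68 CPM, so the split of reads between them is uncertain. Ntn5 had -0.66 ± 0.21 (SE) per SD (n = 11, p = 0.0066) at 0.104 to 2.40 CPM, with 23.4% of its exons opposite Sec1. Epha2 had -0.28 ± 0.09 (SE) per SD (n = 11, p = 0.0074, and 0.0841 without mouse 2). With mouse 5 included, the count for this score was 3 of 69, against 4.53% of genes. Without mouse 2 it was 7 (4.38% of genes), of which 3 were among the 10, and without mouse 6 it was 15 (10.8% of genes).

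The box:zone ratio at 10 min compares direct with distant contact in the social interaction test. For it, edgeR called no member after adjustment (0 of 69, against 0.0223% of genes) and 1 at an unadjusted p under 0.05 (1.45%, against 8.05% of genes; 1 of 66 at 1 CPM or more, against 9.18%). DESeq2 called 3 at that threshold (3 of 69, against 6.24% of genes) and none after adjustment. The 1 was Ntng1, at -0.18 ± 0.08 (SE) per SD (n = 11, p = 0.0440), which ranged from 29.5 to 63.6 CPM with a median of 33.7. Mouse 2 gave the top value, and without it the slope was -0.07 (n = 10, p = 0.232); leaving out mouse 1, 3, 8, 9, 10 or 12 also took p above 0.05. Efna2 and Sema3a followed with p = 0.0517 and 0.0578 (n = 11). Leaving out single mice gave counts of 0 without mouse 1 (7.76% of genes) or mouse 2 (8.06%), 2 without mouse 6 (7.45%) or mouse 11 (7.68%), and 3 without mouse 3 (2.84%). The count was 4 without mouse 4 (8.83%), mouse 8 (10.2%) or mouse 12 (9.08%).

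**Figure D5:**
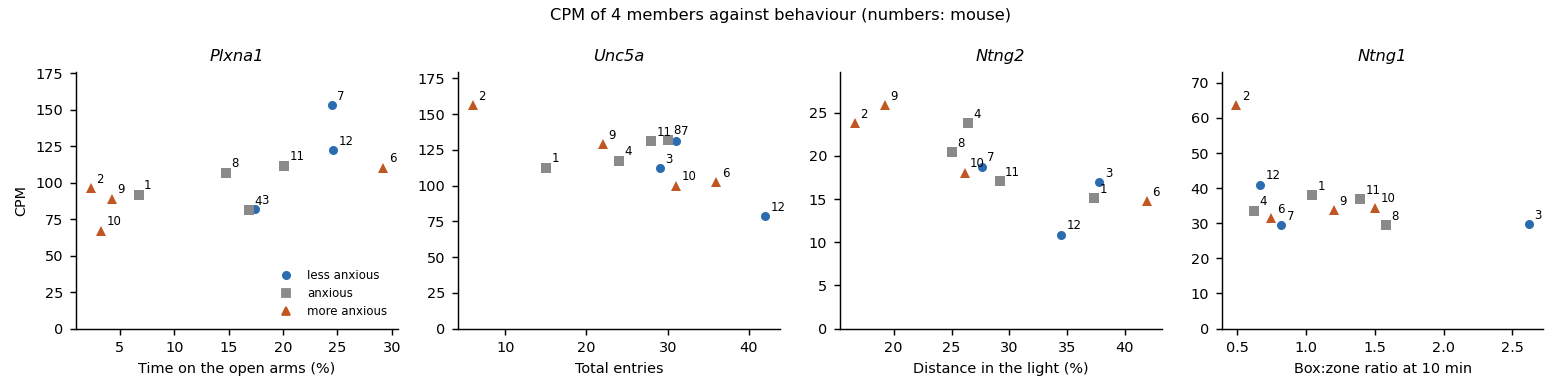
CPM of Plxna1, Unc5a, Ntng2 and Ntng1 in each of 11 mice against time on the open arms (%), total entries, distance in the light (%) and box:zone ratio at 10 min; numbers are mice and vertical axes start at 0. Ntng2 declines from 23.8 CPM in mouse 2 to 14.7 CPM in mouse 6 along the light score, while Ntng1 is set apart by mouse 2 at 63.6 CPM.

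Outside the ligands and receptors, 96 further genes of these pathways were listed, 35 co-receptors and other cues and 61 intracellular components, and all were tested. None passed adjustment by edgeR, and 11 had an unadjusted p under 0.05 across the groups (11.5%, against 6.35% of genes), 7 higher and 4 lower in more than in less anxious mice (against 3.95% and 2.4% of genes), with a median log2 difference of -0.019 over the 96. Among the cues and co-receptors, Neo1, a netrin and RGM receptor, had -0.28 ± 0.10 (SE) and Rgma, an RGM ligand of Neo1, 0.31 ± 0.12 (SE). Bmpr1b, a BMP receptor, had -0.42 ± 0.15 (SE), and Wnt5a, a Wnt ligand, was lowest in the anxious mice.

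The intracellular genes called were Nck2, an SH2/SH3 adaptor (0.41 ± 0.11), Mical3 and Mical2, enzymes that oxidise actin downstream of plexins (0.66 ± 0.18 and 0.37 ± 0.12), Mapk3, the kinase ERK1 (0.39 ± 0.13), and Evl, an Ena/VASP actin regulator (0.29 ± 0.10), all higher. Dpysl3, a collapsin response mediator protein, had -0.45 ± 0.13 and Pak2, a Rac and Cdc42 effector kinase, -0.47 ± 0.13. Errors in these pairs are SE, and adjusted p-values by edgeR ran from 0.525 to 0.759. The count was 7 with the GC correction (5.54% of genes) or without mouse 9 (4.36%), and 17 without mouse 1 (7.06%).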

How the data were processed

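Amygdala mRNA of 12 mice was sequenced with a strand-marking kit as single reads of 75 bp. The authors trimmed adapters with cutadapt, used STAR on mm10 for quality control, quantified transcripts with Salmon and summed them to genes with tximport; the submitters' processing notes also name CASAVA and DESeq2. The strand setting of the counting was not given in the sources used here. The deposited values are estimated counts per gene, written as whole numbers and not normalized, for 47729 genes, of which 47310 matched a name in GENCODE M21 (GRCm38).

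Genes with 10 or more counts over the 11 grouped mice were tested with edgeR 4.0.16 in R 4.3.3 (TMM factors, robust quasi-likelihood F-test, both group terms together, PC1 of the variance-stabilized counts as covariate, Benjamini-Hochberg over 26963 genes at a threshold of 0.05). Behavioural scores were fitted without a covariate. CPM were TMM-scaled, and 17 of the 69 members share exon bases with another annotated gene. Alternatives were DESeq2 1.42.0, its size factors, other count minimums, no covariate, no robust fit, an offset for exonic GC content (spline with 6 degrees of freedom), each mouse left out, ranks of the scores and mouse 5 included. The fits were checked on simulated counts. Mice are separate animals, so p-values measure the spread between mice of one cohort.

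Members named were those with an unadjusted p under 0.05 across groups, those not overlapping between less and more anxious mice, the highest and lowest level of each family, and the 3 with the lowest p for each score. The members and gene lists were chosen with earlier results of these data known.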

Additional observations from a re-analysis of the deposited data

Results flagged for a closer look

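Of 35 members looked at in the 2 groups of 4 mice (70 sets of values), 1 had a mouse far from the rest of its group: Ntng1 was at 63.6 CPM in mouse 2, against 31.5 to 34.4 CPM in the other more anxious mice. Chance alone flags about 5% of such sets.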

How the results depend on the processing

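No setting gave a member an adjusted p under 0.05 across the groups. The count at an unadjusted p under 0.05 ranged from 5 to 16 with single mice left out, and the median log2 difference of members kept its sign throughout, from -0.15 with the GC offset to -0.030 without mouse 7. Non-overlapping members numbered 9 to 20 with single mice left out. For open-arm time the leave-one-out counts ran from 3 to 10, and the count was 2 with mouse 5 included; for total entries they ran from 5 to 17. Distance in the light had 3 calls with mouse 5 included. The box:zone ratio had 0 to 4 calls with single mice left out, 3 with DESeq2, and 2 with the GC offset, with PC1 as covariate or with ranks. Pathway genes had 7 calls with the GC offset and 7 to 17 with single mice left out. The median level of members was 4.80 per kilobase by the longest transcript against 2.94 by all exons, and 9 of 10 families kept the same highest member. By the longest transcript, the lowest member changed from Sema3b to Sema3g among the semaphorins and from Slit2 to Slit3 among the Slits. Of 420 recomputed differences of named members, 419 kept their direction; Sema6b turned to -0.046 with the GC offset. The cause was not tested, and the GC offset has the GC trend of each library removed by construction. Low counts limit Epha1, Ntn5, Efna4 and Unc5cl, and with 3 or 4 mice a group differences of the sizes given here did not pass adjustment.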

Other observations

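Mouse 5, which the labels put in no group, lay outside the range of the 11 other mice for 22 of the 69 members, against 32.6% of all genes at a mean of 1 CPM or more, on a library of 32682574 counts.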
